A study of Mus musculus with 18 samples.

Results

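Mouse embryonic stem (ES) cells cultured with ATN161, an integrin α5β1 inhibitor that took the place of feeder cells, were compared across all genes with ES cells kept together with control feeders. The comparison rests on 6 of the 18 mRNA sequencing libraries of the series, 3 per group, and on 15389 genes that passed a filter on low counts. The labels list only ES cells as the source of the ATN161 libraries, whereas those on control feeders hold ES cells and embryonic fibroblasts, so co-culture RNA was sequenced as a mixture. As a further reference served 3 libraries of ES cells labelled as grown on control feeders with the feeders then removed, and 3 of control feeders alone. The libraries with feeders labelled p53-defective, alone and under ES cells, entered the filter on low counts, the scaling and the shared estimate of spread, but no comparison. None of the groups compared here carried the p53-defective feeders. The labels name no ES cell line, strain, dose of ATN161 or time in culture. They do not say whether the 3 libraries of a group were separate cultures. The p-values therefore reflect only the spread within groups of libraries, pooled over all 18, and that spread may be technical. Nor do the labels say whether the ATN161 cells had earlier been kept on feeders.

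Feeders are usually mitotically inactivated fibroblasts that supply ES cells with extracellular matrix and with soluble factors, among them leukaemia inhibitory factor (LIF), which acts through STAT3 to hold mouse ES cells undifferentiated. Fibronectin is a matrix glycoprotein that integrin α5β1 recognises through an RGD motif and a neighbouring synergy site, and ATN161 is a short peptide modelled on that synergy site. Ligand-bound integrins assemble focal adhesions, which link the matrix to actin and signal through focal adhesion kinase and Src to ERK, to serum response factor and to the YAP and TAZ coactivators. By the series title, the study concerned feeder p53, fibronectin and integrins in ES cell pluripotency.

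Library totals were 19310204 to 19833404 counts with ATN161, 18623948 to 19340778 counts on control feeders and 17662504 to 18107435 counts after feeder removal. Levels are given as CPM, counts scaled to a common library size with TMM factors, for each library or as mean ± SD (n = 3), where 1 count is worth about 0.05 CPM. Changes are log2 fold changes of ATN161 over control-feeder co-culture ± SE. This SE is approximate, being the size of the change divided by the square root of the test's F statistic. It can be too small for large changes at few counts. A gene was called at an adjusted p below 0.05 in edgeR's quasi-likelihood test with Benjamini-Hochberg adjustment over all 15389 genes. With ATN161, 5176 genes were called higher (33.6% of those tested) and 4307 lower (28.0%), 9483 in all (61.6%), and the median log2 fold change of all genes was 0.07. Calls of at least 2-fold were uneven, with 278 higher (1.81%) and 1960 lower (12.7%). The number higher was 83 with a filter of 5 CPM in 3 libraries and 179 in a fit of the 6 libraries alone, and scaling on ES-restricted genes gave 58 higher and 3038 lower. When libraries were instead scaled on ES-restricted genes, a class defined below, the median of all genes moved to -0.34. The split moved to 947 higher (6.15%) and 7855 lower (51.0%), so many calls of rises depended on the scaling. In 74.0% of all genes tested, the 3 ATN161 libraries did not overlap the 3 on control feeders. Counts of called list members below are to be read beside the 33.6% of all genes called higher and 28.0% lower. For ATN161 against feeder removal these shares were 28.6% and 26.8%.

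Genes were first sorted by the culture in which their RNA was higher, from the libraries after feeder removal and those of feeders alone. The comparison itself does not use these libraries. ES-restricted genes were at least 8-fold higher after feeder removal than in feeders and reached 10 CPM, and feeder-restricted genes were the reverse. The classes compare bulk cultures and do not show which cells made an RNA. Fibroblast markers still summed to 4623 to 4962 CPM after feeder removal. How much RNA of ES-restricted genes came from any remaining feeders was not tested. Of 730 ES-restricted genes, 493 were called higher with ATN161 (67.5%, against 33.6% of all genes tested) and 52 lower (7.12%, against 28.0%), with a median log2 fold change of 0.44. With scaling on ES-restricted genes, 195 of them were called higher (6.15% of all genes were) and 174 lower (51.0% of all). These genes themselves set that scaling. Their near-even split, and its distance from the shares of all genes, therefore follow from the scaling and are no separate result. Among 363 feeder-restricted genes, 1 was called higher and 304 lower (83.7%), with a median of -1.51. The 14296 shared genes split into 4682 higher and 3951 lower, with a median of 0.06.

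The level of each class was then read in every library. Feeder-restricted genes stood at a median of 5.94, 5.9 and 5.95% of their level in feeders alone with ATN161, against 14.2, 14.1 and 13.6% on control feeders. After feeder removal they stood at 9.06, 9.62 and 9.94%. The ATN161 libraries were thus the lowest of the 3 kinds, and no library of one kind overlapped another. ES-restricted genes stood at 107, 108 and 104% of their mean level after feeder removal with ATN161, against 77.7, 79.2 and 78.8% on control feeders. In an exact two-sided permutation test each of these differences between ATN161 and control-feeder libraries gave p = 0.1, the smallest value that 3 against 3 libraries allow. A percentage here is a level relative to the other culture and not a fraction of RNA, and it moved with the cutoff, feeder-restricted genes standing at 2.22% with ATN161 and 4.02% on control feeders when a 32-fold difference was required. In such bulk samples, fewer feeder cells and less feeder RNA per cell cannot be told apart, and for a gene that both cell types express the share of a difference that came from feeder RNA was not tested.

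**Figure D1:**
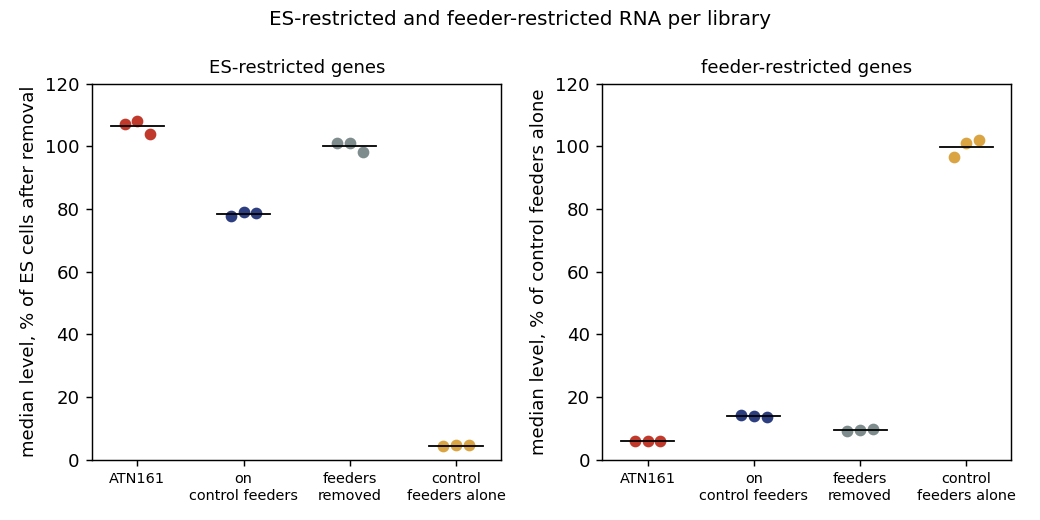
Median level of ES-restricted and feeder-restricted genes in each library of 4 groups, in percent of their mean level after feeder removal or in feeders alone. Each point is 1 library. The 3 ATN161 libraries sit near 5.93% for feeder-restricted genes, against 13.6 to 14.2% on control feeders, and near 106% for ES-restricted genes, against 78.6%.

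Across all genes the change followed the feeder to ES ratio. In genes more than 8-fold lower in feeders than after feeder removal, the median log2 fold change was 0.43, and in those 2- to 8-fold lower it was 0.39. Genes within 2-fold between both had a median of 0.11. Genes 2- to 8-fold higher in feeders had a median of -0.61, and those beyond 8-fold a median of -1.41. Several of the largest falls lay elsewhere on this scale. Fosb, Fos and Cfb were ES-restricted by the rule above, and Angptl7, Egr2, Prelp, Egr1 and Cxcl9 were shared.

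**Figure D2:**
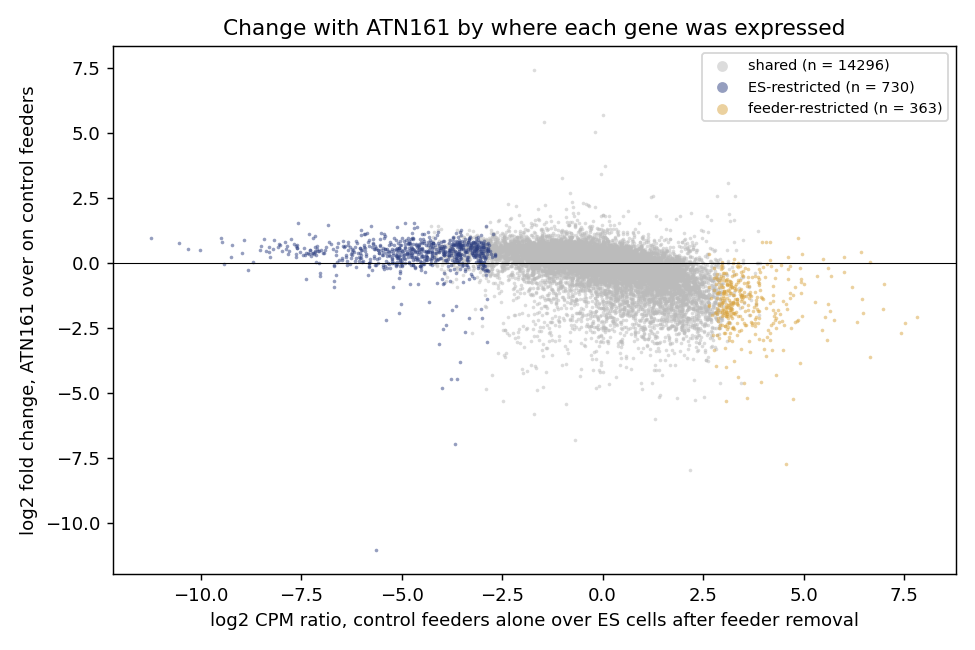
Log2 fold change of ATN161 over control-feeder co-culture (vertical axis) against the log2 ratio of CPM in feeders alone over ES cells after feeder removal (horizontal axis). Each point is 1 of 15389 genes, coloured by class. Most feeder-restricted genes lie below 0, and a group of ES-restricted and shared genes, led by Fosb and Fos, lies far below the cloud.

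Fibronectin RNA was lower with ATN161, while the RNA of the integrin α5 chain was not called. Fn1 (Entrez 14268, chromosome 1, 71585473 to 71653280 on GRCm38), the fibronectin gene, stood at 1365, 1277 and 1307 CPM with ATN161, against 2365, 2297 and 2206 CPM on control feeders. The ATN161 libraries all lay lower, a log2 fold change of -0.80 ± 0.14 (adjusted p = 3.7e-05). Feeders alone held 12699.8 ± 1186 CPM of Fn1 and ES cells after feeder removal 1642 ± 58.6 CPM, and against the cells after feeder removal the ATN161 value was not called (-0.32, adjusted p = 0.0549). Itga5 (Entrez 16402, chromosome 15, 103344286 to 103366791), which encodes the integrin α5 chain that ATN161 is directed at, stood at 194, 182 and 182 CPM with ATN161 and 201, 207 and 193 CPM on control feeders. These libraries overlapped, and the gene was not called (-0.11 ± 0.09, adjusted p = 0.29). When scaled on ES-restricted genes, Itga5 was called lower (-0.52, adjusted p = 4.27e-05), and in a fit of the 6 libraries alone it was called lower too (-0.20, adjusted p = 3.62e-05).

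The other chains of fibronectin and vitronectin receptors were lower. Itgb1, the β1 chain shared by many integrins, stood at 367, 367 and 379.6 CPM with ATN161 and 531, 522 and 527 CPM on control feeders. The difference was -0.51 ± 0.08 (adjusted p = 1.41e-05). Itgav, the αv chain, stood at 71.5, 68.9 and 65.5 CPM with ATN161, against 115, 113 and 111 CPM on control feeders, a change of -0.72 ± 0.12 (adjusted p = 3.51e-05). Its partner Itgb3 stood at 17.4, 19.5 and 19.8 CPM with ATN161 and 26.1, 24.4 and 23.8 CPM on control feeders, a change of -0.39 ± 0.13 (adjusted p = 0.0142) that was not called without the first ATN161 library (-0.33, adjusted p = 0.0694). For all of these genes the groups did not overlap, and all but Itgb3 were more abundant in feeders alone than in any ES cell library by more than 2-fold.

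Of 18 integrin genes tested, 13 were called lower and 2 higher, with a median log2 fold change of -0.60 (28.0% of all genes were lower and 33.6% higher). Compared with feeder removal, 7 were called lower and 2 higher, with a median of -0.14 (26.8% of all genes were lower and 28.6% higher). Itga11, a collagen receptor chain of fibroblasts, stood at 1.11, 0.912 and 1.04 CPM with ATN161 and 10.5, 10.1 and 11.2 CPM on control feeders, a change of -3.36 ± 0.15 (adjusted p = 1.75e-14). The members called higher were chains whose genes were ES-restricted here. Itga6, the laminin receptor chain α6, stood at 222, 224 and 205 CPM with ATN161 and 155, 156 and 149 CPM on control feeders (0.50 ± 0.12, adjusted p = 0.00134), a rise that was not called with scaling on ES-restricted genes (0.09). Itgb7, the β7 chain, stood at 17.5, 16.2 and 17.5 CPM with ATN161, against 11, 10.1 and 9.58 CPM on control feeders (0.74 ± 0.11).

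Among 26 genes of focal adhesions, 15 were called lower and 4 higher, with a median of -0.34 (28.0% of all genes were lower and 33.6% higher). Compared with feeder removal, 10 were called lower and 8 higher, with a median of -0.01 (26.8% of all genes were lower and 28.6% higher). Zyx encodes zyxin, a LIM protein of mature, tension-bearing adhesions, and stood at 20.3, 21.4 and 20.6 CPM with ATN161 and 78.4, 80.2 and 76.2 CPM on control feeders (-1.91 ± 0.07, adjusted p = 8.1e-16). Parva encodes α-parvin, which joins integrin-linked kinase to actin, and stood at 19.5 ± 1.25 CPM with ATN161, against 84.1 ± 2.31 CPM on control feeders (-2.11 ± 0.10). Both groups were tight and far apart for these genes, and both were also lower than after feeder removal, with log2 fold changes of -0.98 for Zyx and -1.48 for Parva. Of the kinases, Ptk2, focal adhesion kinase, stood at 84.3 ± 3.26 CPM with ATN161 and 83.4 ± 3.6 CPM on control feeders and was not called (adjusted p = 0.886). Src kinase stood at 49.1 ± 1.98 CPM with ATN161 and 71.6 ± 4.75 CPM on control feeders (-0.54 ± 0.06). The kindlin gene Fermt2, Actn4, Vasp and Fblim1 were called higher by 0.22 to 0.44, rises that were not called with scaling on ES-restricted genes, where Vasp was called lower (-0.19).

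Genes driven by actin dynamics and cell tension were mostly lower. Of 22 tested targets and regulators of serum response factor (SRF) and YAP, 18 were called lower and none higher, with a median log2 fold change of -1.23. Compared with feeder removal, the fall was smaller, with 14 called lower, 1 higher and a median of -0.48. Ccn1, a secreted matricellular protein and a standard YAP target, stood at 48.9, 45.7 and 47.5 CPM with ATN161 and 608, 626 and 606 CPM on control feeders. That difference was 13-fold (-3.70 ± 0.14, adjusted p = 1.7e-15), and the ATN161 libraries were also 9.64-fold below those after feeder removal and well below feeders alone at 380.4 ± 66.4 CPM. Amotl2, which binds and restrains YAP and is itself a target, stood at 52.5, 49.2 and 51.5 CPM with ATN161, against 225, 231 and 216 CPM on control feeders and 234, 223 and 214 CPM after feeder removal. The log2 fold change was -2.13 against control feeders and -2.13 against feeder removal. Ccn2, a relative of Ccn1, stood at 34.8 ± 2.12 CPM with ATN161 and 180.4 ± 5.84 CPM on control feeders, a difference of -2.37 ± 0.23. The muscle ankyrin repeat gene Ankrd1 (-2.11) and the Hippo kinase gene Lats2 (-2.35) were also lower. Contractile genes of fibroblasts such as Acta2 (-1.09) and Tagln (-1.27) were lower as well, and Acta2 was feeder-restricted. The exceptions were Ajuba, Actg1, Actg2 and Cnn1, which were not called.

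Srf itself was lower, and its promoter carries sites of its own kind. It stood at 47.7, 44.8 and 44.3 CPM with ATN161, against 89.1, 98.2 and 82.5 CPM on control feeders and 106, 95.2 and 103 CPM after feeder removal. The fall was -0.98 ± 0.08 against control feeders (adjusted p = 1.01e-09) and -1.15 against feeder removal, and feeders alone held 46.3 ± 0.578 CPM, near the ATN161 level. SRF binds the CArG box, which was found in the 250 bases before the start of 5 of the 17 listed genes with a promoter in the RefSeq table (29.4%), namely Actg1, Cnn2, Myl9, Srf and Vcl, and in 1.47% of all 12136 such promoters. The TEAD motif GGAATG, through which YAP acts, was found on either strand in 9 of the 17 (52.9%), Ccn1, Amotl2, Ankrd1 and Axl among them, and in 13.2% of all. The list was made of SRF and YAP targets and regulators, so high shares of these motifs come with that choice. A match describes letters in this window and is not evidence of a bound site. The Srf promoter is printed because it holds a pair of CArG boxes, shown in capitals, in the build GRCm38.p6 and in the direction of the gene.
Srf (chr17:46556163-46556412, minus strand): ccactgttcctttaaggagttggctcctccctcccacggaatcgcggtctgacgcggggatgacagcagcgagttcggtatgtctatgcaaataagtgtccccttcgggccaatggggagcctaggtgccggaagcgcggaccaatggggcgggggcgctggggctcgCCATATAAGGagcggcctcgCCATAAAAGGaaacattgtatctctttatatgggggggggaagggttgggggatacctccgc

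Matrix genes were lower almost throughout. All 32 interstitial matrix genes tested were called lower with ATN161, the median log2 fold change being -2.21, and 31 of them were also lower than after feeder removal (26.8% of all genes were called lower and 28.6% higher in that second comparison, which shares the ATN161 libraries with the main one). Col1a1, the main chain of type I collagen, stood at 193, 176 and 191 CPM with ATN161 and 1559, 1447 and 1541 CPM on control feeders. The change was -3.02 ± 0.15 (adjusted p = 4.71e-13). Col3a1, type III collagen, stood at 222, 205 and 221 CPM with ATN161, against 2253, 2162 and 2291 CPM on control feeders, a 10.4-fold difference. Fbln5, a fibulin of elastic fibres, stood at 5, 4.82 and 4.52 CPM with ATN161 and 39.8, 37 and 36 CPM on control feeders (-2.97 ± 0.09, adjusted p = 5.58e-17). In none of these did a library of one group reach the other. Fn1 had the smallest fall of the list and Col3a1 the largest.

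Basement membrane genes were mostly lower. Of 20 tested, 14 were called lower and 1 higher, with a median of -1.22. Col18a1 stood at 471, 445 and 469.6 CPM with ATN161 and 1325, 1313 and 1285 CPM on control feeders (-1.50 ± 0.10), and at only 113 ± 7 CPM in feeders alone, less than in any of the ES cell groups. Lama4 (-3.05) and Col4a5 (-2.85) were lower too. Lama1, the laminin α1 chain made by early embryos, stood at 66.5, 63.2 and 64.1 CPM with ATN161 and 36.8, 40.3 and 34.5 CPM on control feeders and was the one called higher (0.79 ± 0.16, adjusted p = 0.000198); with scaling on ES-restricted genes it was not called (0.38, adjusted p = 0.0554). Lama3, Lamb3, Lamc1 and Nid2 were among those not called.

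Enzymes that build or cut matrix followed the collagens, 23 of 25 being called lower and none higher (median -2.00). The collagen crosslinking enzyme gene Loxl2 stood at 44.6, 42.9 and 44 CPM with ATN161 and 341, 311 and 324 CPM on control feeders (-2.89 ± 0.12), and the groups did not overlap. Adamts5, an aggrecanase, was at 1.45 ± 0.2 CPM with ATN161 and 58 ± 4.83 CPM on control feeders (-5.32 ± 0.56). It was among the 10 largest falls of genes reaching 10 CPM, predicted and clone names left out. Mmp10 and Mmp11 were not called.

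Fibroblast identity markers were lower too. Of 24 tested, 23 were called lower and none higher, with a median of -1.80, and the remaining gene, Tcf21, was near 0 CPM in every ES cell library. Their summed level was 1169 to 1301 CPM with ATN161, against 7154 to 7526 CPM on control feeders, 4623 to 4962 CPM after feeder removal and 34318 to 41317 CPM in feeders alone. No marker with reads in feeders was wholly absent from the ATN161 libraries. Thy1, a surface marker of fibroblasts, stood at 21.9, 23 and 24.3 CPM with ATN161, against 83.4, 79.6 and 82.5 CPM on control feeders. Vim, the intermediate filament vimentin, stood at 234, 233 and 262 CPM with ATN161 and 828, 833 and 808 CPM on control feeders (-1.76 ± 0.08).

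Markers of other cell types were also summed and their calls counted, where 33.6% of all genes were called higher and 28.0% lower. Macrophage markers summed to 14.5 to 18.2 CPM with ATN161 and 16.2 to 17.9 CPM on control feeders, against 175 to 235 CPM in feeders alone. Of these, 2 of 17 were called higher (Cd74 and Mrc1) and 2 lower. Neither was called higher without the first ATN161 or the first control-feeder library, and 1 without either other control-feeder library. Tyrobp, C1qb, C1qc and Fcgr1 had no counts in either group. Skeletal muscle markers summed to 106.0 to 109.9 CPM with ATN161 and 75.1 to 77.7 CPM on control feeders (47.5 to 67.0 CPM in feeders alone), with 4 of 10 called higher and 1 lower. Most of that sum was Mylpf, an ES-restricted gene here. Mesothelial markers summed to 451 to 467 CPM with ATN161 and 556 to 584 CPM on control feeders (188 to 221 CPM in feeders alone), with 2 of 15 called higher (Ezr and Calb2) and 6 lower, led by Efemp1 (-3.30). With scaling on ES-restricted genes, no macrophage or muscle marker was called higher. The part of these cell types in other results was not tested.

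Soluble factors that feeders supply were lower. Of 30 tested, 27 were called lower and 1 higher, with a median of -1.95. Igf2, an imprinted fetal growth factor, stood at 114, 112 and 122 CPM with ATN161 and 1608, 1585 and 1577 CPM on control feeders, a 13.7-fold difference (-3.78 ± 0.13, adjusted p = 4.71e-16). Kitl, the ligand of the receptor Kit, stood at 4.6, 3.65 and 3.74 CPM with ATN161, against 35.2, 31.9 and 30.1 CPM on control feeders (-3.01 ± 0.14). Neither gene's groups overlapped. Lif stood at 12.4, 12.3 and 14.1 CPM with ATN161, against 66, 57.6 and 60.9 CPM on control feeders and 46.2, 40.5 and 44 CPM after feeder removal. The ATN161 libraries were 4.76-fold below control feeders (-2.25 ± 0.11, adjusted p = 1.82e-13), while feeders sequenced alone held only 15.6 ± 2.92 CPM of Lif, close to the ATN161 level. Bmp4 was the factor called higher, at 15.4 ± 1.53 CPM with ATN161 and 10.2 ± 0.717 CPM on control feeders (0.60 ± 0.16), a rise not called with scaling on ES-restricted genes.

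**Figure D3:**
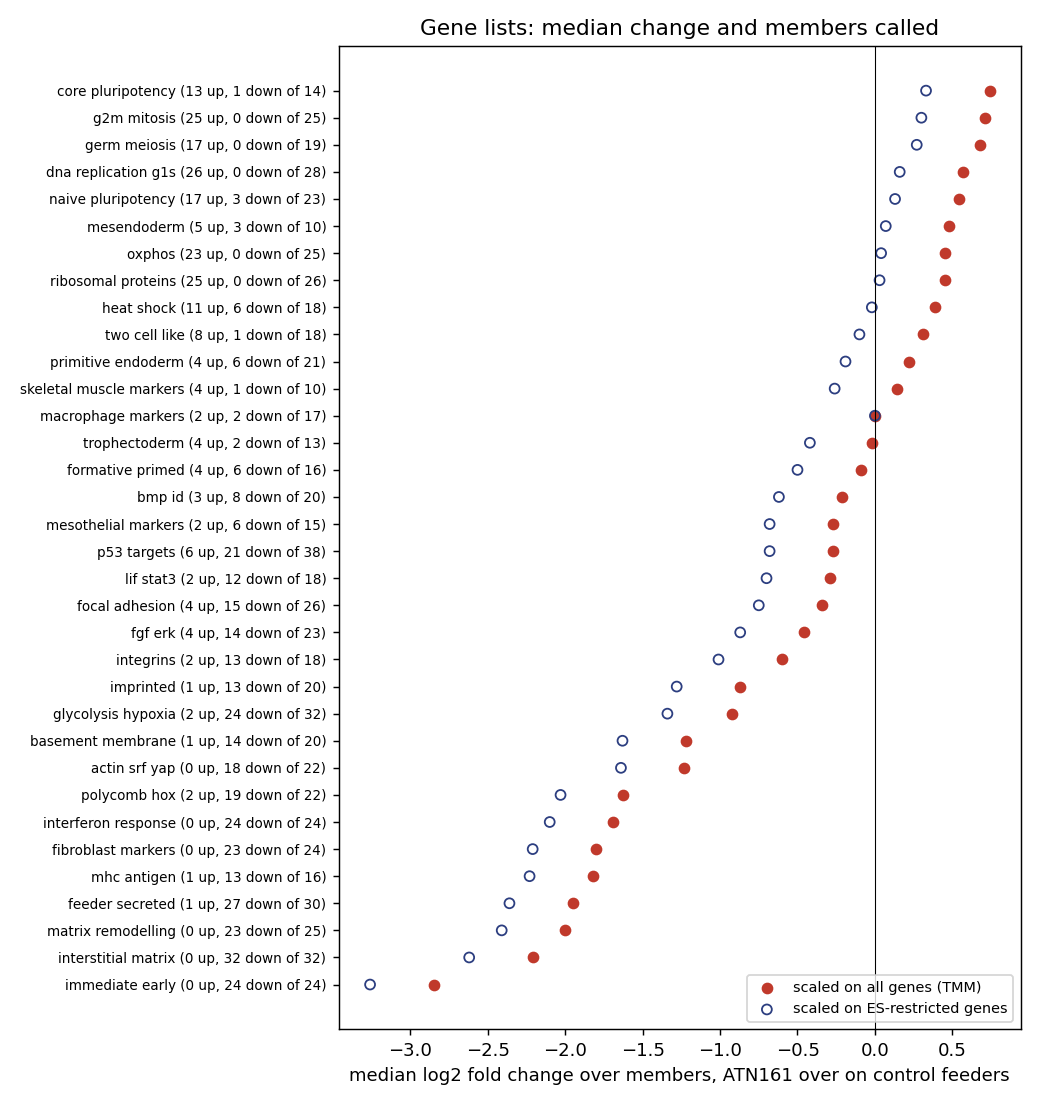
Median log2 fold change of ATN161 over control-feeder co-culture for each of 34 gene lists. Filled points use the scaling on all genes and open points the scaling on ES-restricted genes. Immediate early genes lie lowest at -2.85, interstitial matrix, interferon and fibroblast lists lie below -1.5, and core pluripotency and mitosis lists lie above 0.7 by the scaling on all genes.

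The largest falls among genes reaching 10 CPM included immediate early genes, which cells switch on within minutes of a growth factor, serum, adhesion or stress stimulus, mostly through ERK, SRF and AP-1. All 24 tested were called lower with ATN161 and all 24 were also lower than after feeder removal, with a median log2 fold change of -2.85. Fos, an AP-1 subunit, stood at 6.52, 5.42 and 5.45 CPM with ATN161, against 732, 737 and 723 CPM on control feeders and 263, 244 and 257 CPM after feeder removal. The difference from control feeders was 126-fold (-6.97 ± 0.10, adjusted p = 6.47e-23) and that from feeder removal 43.8-fold. Feeders alone held 19.6 ± 1.2 CPM of Fos, far less than the co-culture, so the level on control feeders lay above those of feeders alone and of ES cells after feeder removal. Fosb, its close relative, stood at 0.0505, 0.405 and 0.312 CPM with ATN161, against 530.4, 648 and 504 CPM on control feeders. In the ATN161 libraries this was a handful of reads, and the log2 fold change was -11.06 ± 0.20. Leaving out 1 ATN161 library gave values from -10.58 to -11.56, so the SE of 0.20 is too small for this gene. The fall of Fosb was the largest among genes reaching 10 CPM, predicted and clone names left out.

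Egr1, a zinc finger factor and a direct ERK and SRF target, stood at 28.5, 26.9 and 28.3 CPM with ATN161, against 1040, 1191 and 1071 CPM on control feeders and 784, 668 and 798 CPM after feeder removal. It was 39.5-fold lower than on control feeders (-5.30 ± 0.13) and 26.9-fold lower than after feeder removal. Egr2 stood at 0.354, 0.608 and 0.208 CPM with ATN161 and 22, 26.1 and 19.3 CPM on control feeders (-5.82 ± 0.23). Jun, the main partner of Fos, stood at 20.8, 23.3 and 23.4 CPM with ATN161, against 437, 510.5 and 432 CPM on control feeders (-4.36 ± 0.09, adjusted p = 9.25e-20). Each of these genes was more than 10-fold lower in every ATN161 library than in any library on control feeders. The stress-induced factor gene Atf3 stood at 4.14, 2.99 and 3.06 CPM with ATN161 and 80.5, 103 and 73.7 CPM on control feeders (-4.65 ± 0.28). Zfp36, whose protein degrades AU-rich mRNAs, stood at 12.1, 11.8 and 11.7 CPM with ATN161, against 225, 239 and 211 CPM on control feeders, an 18.9-fold difference. The smallest fall of the list was that of Myc, at 11.5 ± 0.703 CPM with ATN161 and 14.4 ± 0.774 CPM on control feeders (-0.33 ± 0.14, adjusted p = 0.0486). Levels on control feeders were above those after feeder removal and in feeders alone for Fos, Fosb, Egr1, Jun, Junb, Atf3 and Zfp36.

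**Figure D4:**
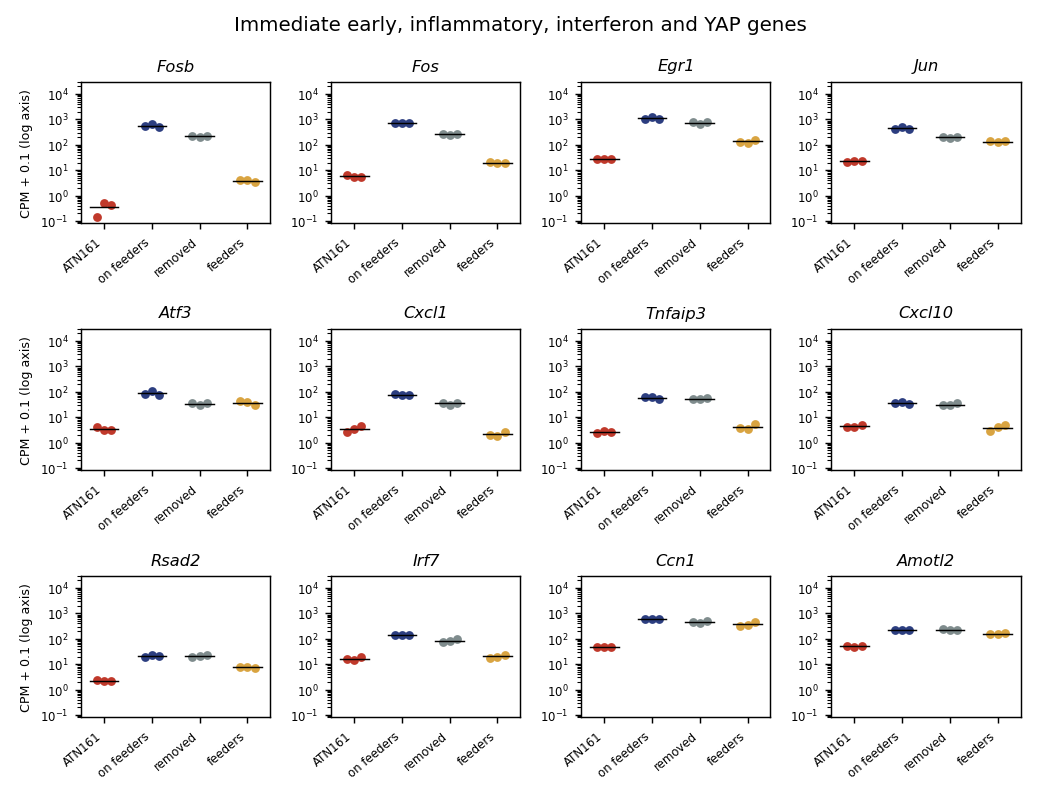
Level of 12 immediate early, inflammatory, interferon-induced and YAP target genes in each library of 4 groups, in CPM + 0.1 on a log axis, with a line at each group mean. The ATN161 libraries are the lowest of the 3 ES cell groups in every panel, with Fosb at or below 0.405 CPM against at least 504 CPM on control feeders.

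Feedback genes of the FGF and ERK pathway were lower in part. Of 23 tested, 14 were called lower and 4 higher, with a median of -0.46 (28.0% of all genes were lower and 33.6% higher). Fgf4, the autocrine ERK ligand of ES cells and a target of Oct4 and Sox2, stood at 238, 251 and 239.9 CPM with ATN161 and 127, 126 and 130.2 CPM on control feeders. It rose by 0.93 ± 0.07 (adjusted p = 4.44e-09), and remained higher with scaling on ES-restricted genes (0.52). The ERK phosphatase gene Dusp6 stood at 49.2 ± 0.887 CPM with ATN161 and 65.1 ± 1.82 CPM on control feeders (-0.41 ± 0.09), and the signalling antagonist gene Spry2 was lower (-0.75). Dusp5, an ES-restricted gene, was lower (-1.38). Etv5, a transcription factor induced by FGF, stood at 318 ± 3.38 CPM with ATN161 and 317 ± 13.4 CPM on control feeders and was not called (adjusted p = 0.979), and Etv4 was called higher (0.51) except with scaling on ES-restricted genes.

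In the LIF and STAT3 pathway, 12 of 18 genes were called lower and 2 higher (median -0.29), where 28.0% of all genes were lower and 33.6% higher. The receptor subunit Il6st (gp130) stood at 76.6 ± 3.02 CPM with ATN161 and 195 ± 7.06 CPM on control feeders (-1.35 ± 0.12), and the oncostatin M receptor gene Osmr was lower (-2.77). Feeders alone held more of both, at 396 ± 50.4 CPM of Il6st and 223 ± 11.9 CPM of Osmr. Lifr, the LIF receptor itself, was not called (adjusted p = 0.0537). Stat3 fell by 0.29 ± 0.07, with 149 ± 5.24 CPM with ATN161 and 181 ± 2.9 CPM on control feeders. Socs3, the STAT3-induced feedback inhibitor, stood at 147, 150 and 143 CPM with ATN161 and 155, 163 and 149 CPM on control feeders, where the libraries overlapped and the gene was not called (adjusted p = 0.34); with scaling on ES-restricted genes it was called lower (-0.49). Pim3 and Bcl3 were called higher by 0.32 and 0.29, not so with scaling on ES-restricted genes.

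Of 20 BMP pathway genes, 8 were called lower and 3 higher (median -0.21), where 28.0% of all genes were lower and 33.6% higher. With scaling on ES-restricted genes 15 were called lower and none higher (median -0.62). Id3, an inhibitor of basic helix-loop-helix factors, stood at 17.1 ± 2.25 CPM with ATN161 and 71.3 ± 4.51 CPM on control feeders (-2.06 ± 0.32). Id1, its relative, stood at 30.3 ± 0.762 CPM with ATN161 and 22.4 ± 0.955 CPM on control feeders (0.44 ± 0.15). These 2 targets of the same signal thus moved in opposite directions, although the rise of Id1 was not called with scaling on ES-restricted genes (0.03). Smad1, Smad7 and Bambi were not called.

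Inflammatory and interferon-induced genes were also lower. Tnfaip3, which restrains NF-κB and is one of its targets, stood at 2.38, 2.84 and 2.54 CPM with ATN161, against 61.7, 60.4 and 49.6 CPM on control feeders and 50.5, 53.1 and 58.8 CPM after feeder removal (-4.46 ± 0.14 against control feeders). Cxcl1, a neutrophil chemokine, stood at 2.58, 3.24 and 4.52 CPM with ATN161, against 78.8, 77.2 and 73.8 CPM on control feeders, a 22.2-fold difference (-4.47 ± 0.15). Cfb, complement factor B, stood at 1.01, 0.456 and 1.04 CPM with ATN161 and 22.7, 21.8 and 26.3 CPM on control feeders (-4.81 ± 0.19). These 3 genes were ES-restricted by the rule above, with 3.97 ± 1, 2.09 ± 0.361 and 1.95 ± 0.212 CPM in feeders alone, and the ATN161 libraries, like feeders alone, lay below 5 CPM. The chemokine Cxcl10 stood at 4.04, 4.16 and 5.04 CPM with ATN161, 35.7, 38.1 and 34.4 CPM on control feeders and 3.82 ± 0.904 CPM in feeders alone. Ifi205 and the metalloreductase Steap4, also among the largest falls of the ES-restricted class, had log2 fold changes of -3.81 and -3.11.

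All 24 interferon-response genes tested were called lower, the median log2 fold change being -1.69, and 23 of them were also lower than after feeder removal. Rsad2 (viperin), an antiviral enzyme, stood at 2.22, 2.08 and 2.08 CPM with ATN161, against 19.2, 22.5 and 20.5 CPM on control feeders and 18.8, 20.5 and 22.1 CPM after feeder removal. It was 9.72-fold lower than on control feeders (-3.28 ± 0.14, adjusted p = 1.09e-14). Irf7, the transcription factor that amplifies the interferon response, stood at 15.4, 14.5 and 19.6 CPM with ATN161, against 141, 141 and 137 CPM on control feeders (-3.08 ± 0.14). Isg15, a ubiquitin-like protein, stood at 20.1, 21.3 and 23.6 CPM with ATN161 and 87.6, 87.7 and 76.6 CPM on control feeders (-1.95 ± 0.09). Ifit3, which binds viral RNA with its relatives, stood at 25.2, 24.8 and 29.8 CPM with ATN161, against 126, 127 and 143 CPM on control feeders (-2.31 ± 0.15). In each of these genes the highest ATN161 library lay below the lowest on control feeders. Feeders alone held 7.39 ± 0.444 CPM of Rsad2, 20 ± 2.24 CPM of Irf7, 55.8 ± 2.96 CPM of Isg15 and 105 ± 11.7 CPM of Ifit3. Stat2 had the smallest fall (-0.40), and it was the member not called lower against feeder removal.

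The interferon-stimulated response element, searched on either strand as a pair of GAAA blocks with 2 bases between them, was found in the 250 bases before the start of 9 of the 18 listed genes with a RefSeq promoter, and in 3.24% of all 12136 promoters. The 9 were Bst2, Gbp2, Gbp3, Ifit1, Ifit3, Isg15, Oas1a, Rsad2 and Stat2. The list was made of interferon-response genes, so a high share of this element comes with that choice and is no result about the fall. A match is not evidence of a bound site. Isg15, Ifit3 and Rsad2 are printed to show how the element is placed in members of the list. Capitals mark the matches, of which Isg15 has 3 that overlap in 1 run, Ifit3 has 2 and Rsad2 has 1, the matches of Ifit3 and Rsad2 lying on the other strand and so reading as TTTC blocks. Sequences run 5′ to 3′ in the direction of the gene and are from RefSeq on GRCm38.p6.
Isg15 (chr4:156200819-156201068, minus strand): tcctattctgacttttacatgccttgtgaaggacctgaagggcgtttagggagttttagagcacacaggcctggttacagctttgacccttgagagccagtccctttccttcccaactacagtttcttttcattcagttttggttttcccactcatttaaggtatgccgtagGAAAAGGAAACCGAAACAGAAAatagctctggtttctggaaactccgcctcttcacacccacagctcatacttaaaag
Ifit3 (chr19:34583279-34583528, plus strand): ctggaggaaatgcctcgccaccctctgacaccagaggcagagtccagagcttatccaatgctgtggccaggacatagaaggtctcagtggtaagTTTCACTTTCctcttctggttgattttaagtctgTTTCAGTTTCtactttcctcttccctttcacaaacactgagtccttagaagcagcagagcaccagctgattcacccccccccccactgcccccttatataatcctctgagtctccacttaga
Rsad2 (chr12:26456453-26456702, minus strand): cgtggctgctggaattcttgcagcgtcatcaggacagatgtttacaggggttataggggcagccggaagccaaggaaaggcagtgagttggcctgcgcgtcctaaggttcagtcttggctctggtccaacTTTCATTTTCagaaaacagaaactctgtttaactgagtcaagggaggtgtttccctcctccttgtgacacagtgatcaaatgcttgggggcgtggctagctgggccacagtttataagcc

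Genes of antigen presentation were lower. Of 16 genes tested, 13 were called lower and 1 higher, with a median of -1.82. The heavy chain gene H2-K1 stood at 57.5, 55.8 and 64.1 CPM with ATN161 and 447, 415 and 429 CPM on control feeders, a 7.28-fold difference (-2.86 ± 0.09, adjusted p = 1.16e-16). B2m, the light chain, stood at 116, 116 and 134 CPM with ATN161, against 716, 669 and 774 CPM on control feeders (-2.56 ± 0.11). Feeders alone held 263 ± 13.5 CPM of H2-K1 and 954 ± 49.1 CPM of B2m, and no ATN161 library overlapped one on control feeders for either gene. The peptide transporter gene Tap1 was lower (-1.56). H2-K1 and its relatives are near-identical copies, and how reads were divided among them was not stated, so single members are uncertain. Cd74, the class II invariant chain, was called higher (0.60, adjusted p = 0.0244) at a level of only 1.77 ± 0.319 CPM with ATN161 and 1.16 ± 0.202 CPM on control feeders, and not with scaling on ES-restricted genes.

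Core pluripotency genes were mostly higher with ATN161 than on control feeders. Of 14 core pluripotency genes, 13 were called higher and 1 lower, the median log2 fold change being 0.74, and 9 were still called higher with scaling on ES-restricted genes. Compared with feeder removal, 9 were called higher and 3 lower, with a median of 0.36. Nanog, a homeodomain factor that sustains self-renewal, stood at 916, 947 and 937 CPM with ATN161, against 466, 457 and 494 CPM on control feeders and 575, 537 and 604 CPM after feeder removal. It rose 1.98-fold over control feeders (0.98 ± 0.10, adjusted p = 1.25e-08), by 0.57 with scaling on ES-restricted genes and by 0.71 over feeder removal. Pou5f1, which encodes Oct4, stood at 964, 894 and 987 CPM with ATN161 and 539.8, 583 and 549 CPM on control feeders. The rise was 0.77 ± 0.11 (adjusted p = 1.4e-05), or 0.36 with scaling on ES-restricted genes. Sox2, the partner of Oct4, stood at 464, 478 and 462 CPM with ATN161 and 259, 259 and 248 CPM on control feeders (0.87 ± 0.10, adjusted p = 4.35e-07), and 0.46 with scaling on ES-restricted genes. All ATN161 libraries lay above all others for these 3 genes, which feeders alone held at under 1 CPM. The exception of the list was Lin28a, an RNA-binding protein that blocks let-7 maturation, at 33.2, 33.6 and 31.8 CPM with ATN161 and 43.7, 44 and 39.5 CPM on control feeders (-0.37 ± 0.08, adjusted p = 0.000765). Pou5f1 and Nanog have processed pseudogenes that could take part of their reads.

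Genes of the naive state did not move as 1 group. Of 23 tested, 17 were called higher and 3 lower (median 0.54), and 10 higher and 5 lower with scaling on ES-restricted genes. Prdm14, which represses FGF signalling and DNA methyltransferases, stood at 44.3, 47 and 45.4 CPM with ATN161, against 20.4, 19 and 23 CPM on control feeders (1.13 ± 0.11, adjusted p = 2.57e-08). Zfp57, a keeper of imprints, stood at 220.3, 208 and 216 CPM with ATN161 and 122, 122 and 131 CPM on control feeders (0.78 ± 0.07). Esrrb stood at 678 ± 10.3 CPM with ATN161 and 467 ± 24.4 CPM on control feeders (0.54 ± 0.08), a rise not called with scaling on ES-restricted genes. Klf4 and Klf2 went the other way. Klf4, a reprogramming factor that LIF also induces, stood at 146, 147 and 145 CPM with ATN161, against 294, 337 and 289 CPM on control feeders (-1.07 ± 0.11, adjusted p = 1.85e-08). Klf2 stood at 81.6, 80.4 and 79.4 CPM with ATN161 and 114, 129 and 124 CPM on control feeders (-0.60 ± 0.09, adjusted p = 2.98e-06), in a gene that feeders held at 8.14 ± 0.454 CPM. Against the libraries after feeder removal, 5 of the 23 were called higher and 13 lower.

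**Figure D5:**
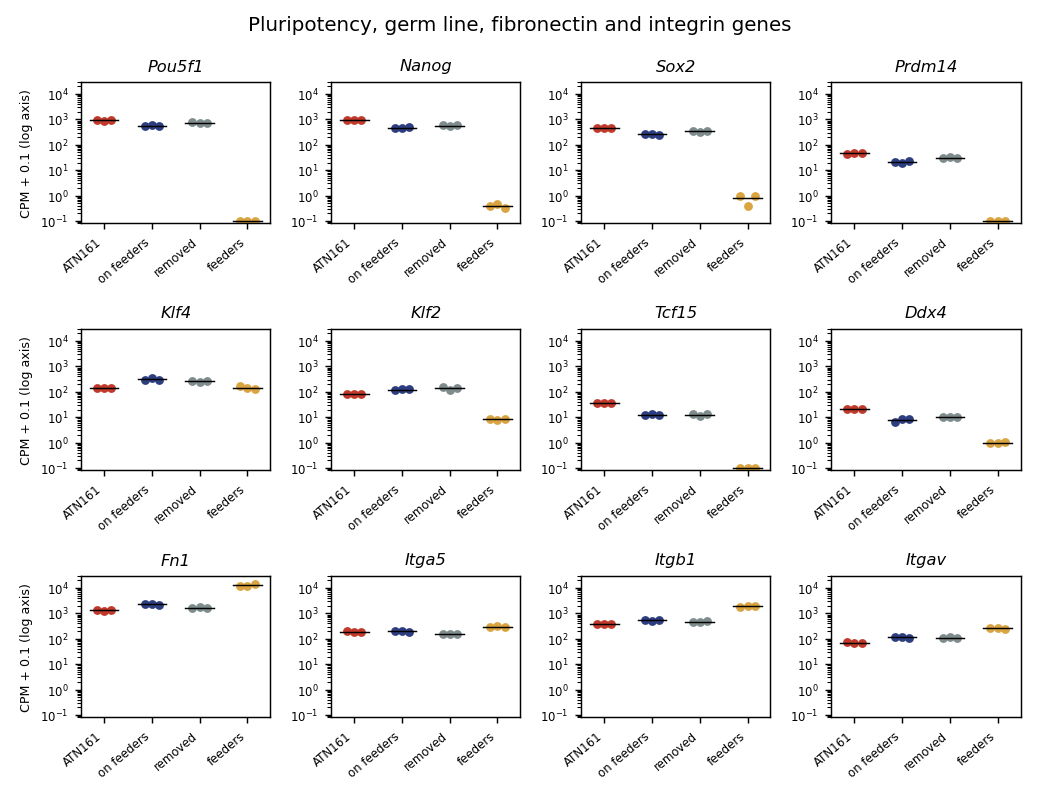
Level of 8 pluripotency and germ line genes and of 4 fibronectin and integrin genes in each library of 4 groups, in CPM + 0.1 on a log axis, with a line at each group mean. Nanog, Pou5f1, Sox2, Prdm14, Tcf15 and Ddx4 are highest with ATN161, Klf4 and Klf2 are lower with ATN161 than on control feeders, and Itga5 overlaps between these groups.

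Among called genes that reached 10 CPM and whose groups did not overlap, predicted and clone names left out, the largest rises stayed under 3-fold. Tcf15, a helix-loop-helix factor that marks ES cells primed for differentiation, stood at 37.4, 34.8 and 35.7 CPM with ATN161, against 12.1, 13.1 and 11.8 CPM on control feeders and 13, 11.5 and 12.9 CPM after feeder removal. It rose 2.91-fold over control feeders (1.54 ± 0.10, adjusted p = 1.29e-10) and by 1.53 over feeder removal, with no counts in feeders alone. Aqp3, an aquaglyceroporin, stood at 311, 301 and 303 CPM with ATN161 and 105, 109 and 99.9 CPM on control feeders (1.54 ± 0.10). Eras, an ES cell-specific Ras, stood at 87.2, 88 and 94.7 CPM with ATN161, against 32.9, 32.5 and 32.3 CPM on control feeders (1.47 ± 0.09). The other genes among the 10 largest rises were Dkkl1, Tex11, Ddx4, Calcoco2, Clgn, Hal and Lcp1, at 1.39 to 1.48, and all 10 were also called higher with scaling on ES-restricted genes and against feeder removal. The 10 largest falls under the same conditions were all beyond 25-fold.

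Germ line and meiosis genes were mostly higher. Of 19 tested, 17 were called higher and none lower with a median of 0.68, but 11 higher and 2 lower with scaling on ES-restricted genes. Against the libraries after feeder removal, 17 were called higher and 1 lower. Ddx4 (Vasa), a germ cell RNA helicase, stood at 21.3, 20.5 and 20.5 CPM with ATN161, against 6.58, 8.34 and 8.22 CPM on control feeders (1.43 ± 0.13, adjusted p = 7e-09). Stra8, which starts meiosis in response to retinoic acid, stood at 65.9, 61.9 and 67.8 CPM with ATN161, against 31.9, 32.4 and 30.8 CPM on control feeders and 20.3, 20.3 and 22.3 CPM after feeder removal (1.04 ± 0.08 against control feeders and 1.64 against feeder removal). Kit, the receptor of the ligand Kitl that was lower, stood at 152, 154 and 142 CPM with ATN161 and 80.3, 83.6 and 83.2 CPM on control feeders (0.86 ± 0.07). Tex19.1 and Prdm1, the gene of the germ cell specifier Blimp1, were not called (adjusted p = 0.536 and 0.648).

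Lineage gene counts depended on the scaling, as did those of all genes. By the scaling on all genes, 33.6% of all genes were called higher and 28.0% lower, and by that on ES-restricted genes 6.15% and 51.0%. Of 16 formative and primed genes, 4 were called higher and 6 lower (median -0.09), and none higher and 10 lower with scaling on ES-restricted genes (median -0.50). Cdh2, N-cadherin, stood at 6.07, 6.44 and 5.66 CPM with ATN161 and 23.9, 24.5 and 20.5 CPM on control feeders (-1.92 ± 0.13), in a gene that feeders held at 75.7 ± 1.81 CPM. Grhl2, an ES-restricted regulator of the epithelial state, was lower (-0.68), Foxd3 and Otx2 were higher by 0.67 and 0.52 by the scaling on all genes only, and Dnmt3b was not called (adjusted p = 0.952). Among 10 mesendoderm genes, 5 were called higher and 3 lower by the scaling on all genes, and 1 higher and 3 lower by that on ES-restricted genes, and 3 higher without control-feeder library 1 or 3. Nodal stood at 127, 122 and 120.4 CPM with ATN161 and 75.1, 80.1 and 76.8 CPM on control feeders (0.67 ± 0.10), whereas its antagonist Lefty2 stood at 11.5, 11 and 13.5 CPM with ATN161 and 14.7, 17.3 and 16.8 CPM on control feeders (-0.44 ± 0.12). Of 21 primitive endoderm genes, 4 were called higher and 6 lower (of all genes, 33.6% were higher and 28.0% lower), and 2 higher and 9 lower with scaling on ES-restricted genes. The matrix genes Col4a1, Col4a2, Lamb1 and Sparc were among the falls and the regulators Gata4 (1.13, at 2.84 ± 0.311 CPM with ATN161 and 1.29 ± 0.337 CPM on control feeders) and Sox17 among the rises, while Gata6 was not called. Of 13 trophectoderm genes, 4 were called higher and 2 lower by the scaling on all genes, none higher and 5 lower by that on ES-restricted genes. Against feeder removal, 8 trophectoderm genes were called higher and none lower, and 10 primitive endoderm genes higher and 5 lower. In that comparison 2 formative and primed genes were higher and 9 lower, and 5 mesendoderm genes were higher and 2 lower. Of all genes, 28.6% were higher and 26.8% lower there.

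Calls of genes of the 2-cell-like state depended on the scaling, as did those of all genes. Of 18 tested, 8 were called higher and 1 lower with a median of 0.31, but none higher and 3 lower with scaling on ES-restricted genes. Of all genes, 33.6% were higher and 28.0% lower by the first scaling, and 6.15% and 51.0% by the second. Zscan4f, of a multicopy family whose reads cannot be divided with certainty, stood at 80.1, 82.8 and 77.6 CPM with ATN161 and 59.4, 58.2 and 63.4 CPM on control feeders (0.41 ± 0.08). Scaled on ES-restricted genes its change was slightly below 0. Sp110 was the member called lower (-1.06). Without any 1 of the control-feeder libraries, 5 were called higher.

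Cell cycle genes were higher. All 25 mitosis genes tested were called higher with ATN161, the median log2 fold change being 0.71, and 18 of them also with scaling on ES-restricted genes. Nusap1, a spindle protein, stood at 139, 141 and 139 CPM with ATN161 and 59.4, 60.6 and 66.3 CPM on control feeders (1.17 ± 0.09, adjusted p = 6.04e-10). Top2a, which untangles replicated DNA, stood at 873, 873 and 829.8 CPM with ATN161, against 455, 460.3 and 501 CPM on control feeders (0.86 ± 0.08). Kif11, a spindle motor, stood at 186, 195 and 177 CPM with ATN161 and 89.1, 91.9 and 97.2 CPM on control feeders (adjusted p = 8.23e-11), while against feeder removal its difference of 0.04 was not called. Of the 25 mitosis genes, 18 were called higher than after feeder removal and none lower, with a median of 0.41 (28.6% of all genes were higher). Of 28 genes of DNA replication, 26 were called higher and none lower (median 0.57), and 10 higher and 1 lower with scaling on ES-restricted genes. Mcm7, a helicase subunit, stood at 635, 632 and 645 CPM with ATN161 and 402, 416 and 411 CPM on control feeders (0.64 ± 0.07). Feeders alone held 60.5 ± 2.27 CPM of Top2a and 71.6 ± 5.27 CPM of Mcm7, well below every ES cell group.

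Ribosomal and respiratory chain genes were higher by the scaling on all genes only. Of 26 ribosomal protein genes, 25 were called higher with a median of 0.45, and none in either direction with scaling on ES-restricted genes. Rpl5 stood at 1479.6, 1485 and 1535 CPM with ATN161 and 1035, 1001 and 1087 CPM on control feeders (0.53 ± 0.09). Of 25 oxidative phosphorylation genes, 23 were called higher and none lower with a median of 0.45, and 2 in each direction with scaling on ES-restricted genes. Cox5a, a cytochrome oxidase subunit, stood at 348, 352 and 351 CPM with ATN161, against 218, 217 and 219.7 CPM on control feeders (0.68 ± 0.08). Both lists were also mostly higher than after feeder removal, with 22 ribosomal and 21 respiratory genes called.

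Hypoxia-induced and glycolytic genes were lower than on control feeders, but mostly not lower than after feeder removal. Of 32 tested, 24 were called lower and 2 higher (median -0.92), but against feeder removal 3 were called lower and 10 higher. Egln3, a prolyl hydroxylase induced by HIF, stood at 13.2, 13.4 and 11.3 CPM with ATN161, against 68.9, 59.6 and 71.8 CPM on control feeders and 11.5, 11.3 and 10.8 CPM after feeder removal. It was 5.29-fold lower than on control feeders (-2.40 ± 0.11) and not called against feeder removal (adjusted p = 0.24). Bnip3, a mitophagy receptor, stood at 32.1, 29 and 29.4 CPM with ATN161, against 136, 114 and 128 CPM on control feeders and 30.9, 29.3 and 35.8 CPM after feeder removal. Neither the ATN161 libraries nor feeders alone, at 36.7 ± 3.74 CPM, came near the co-culture level. Ldha, lactate dehydrogenase A, stood at 373, 343 and 376 CPM with ATN161 and 748, 661 and 735 CPM on control feeders (-0.97 ± 0.09), and Slc2a1, the glucose transporter GLUT1, was lower (-1.16). Adm, the peptide hormone adrenomedullin, stood at 3.69, 3.75 and 3.48 CPM with ATN161 and 60.2, 51.3 and 55.7 CPM on control feeders (15.3-fold), and was also lower than after feeder removal (-1.40). Gapdh and Pfkp were called higher by 0.26 and 0.32, not so with scaling on ES-restricted genes.

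The p53 gene was higher by the scaling on all genes, and many of its targets were lower. Trp53 stood at 434, 412 and 445 CPM with ATN161 and 289, 299.9 and 291 CPM on control feeders (0.55 ± 0.09, adjusted p = 1.34e-05), a rise not called with scaling on ES-restricted genes (0.14, adjusted p = 0.208). Of 38 p53 targets tested, 21 were called lower and 6 higher, with a median of -0.27. With scaling on ES-restricted genes 32 were called lower and 1 higher (median -0.68), where 51.0% of all genes were lower. Cdkn1a, the cell cycle inhibitor p21, stood at 398, 406 and 412 CPM with ATN161, against 929.9, 969 and 894 CPM on control feeders and 567, 523 and 596 CPM after feeder removal. It was 2.3-fold lower than on control feeders (-1.20 ± 0.12, adjusted p = 9.56e-09). Mdm2, the ubiquitin ligase of p53, stood at 331, 348 and 336 CPM with ATN161 and 618, 634 and 589 CPM on control feeders (-0.86 ± 0.07, adjusted p = 3.82e-10). Trp53, Cdkn1a and Mdm2 each had separate groups. Of the death genes, the receptor Fas was lower (-1.87), and Bax and Bbc3 were not called (adjusted p = 0.112 and 0.657). Sesn1 was higher by 0.84, also with scaling on ES-restricted genes (0.43). Feeders alone held 664 ± 15.8 CPM of Cdkn1a and 437 ± 8.38 CPM of Mdm2.

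Heat shock genes were called in both directions. Of 18 tested, 11 were called higher and 6 lower (median 0.39), where 33.6% of all genes were higher and 28.0% lower. With scaling on ES-restricted genes 3 were called higher and 7 lower (6.15% and 51.0% of all genes). Hsp90aa1, a cytosolic chaperone with pseudogene copies, stood at 4735, 4929.9 and 4899 CPM with ATN161 and 1925, 2030.2 and 2298 CPM on control feeders (1.22 ± 0.10). Hspd1, the mitochondrial chaperonin, stood at 1178, 1169 and 1184 CPM with ATN161, against 642, 665 and 673 CPM on control feeders (0.83 ± 0.10). Both were higher in every ATN161 library. The stress-inducible Hspa1a instead stood at 5.26, 4.76 and 4.16 CPM with ATN161 and 38.8, 47.5 and 37.8 CPM on control feeders, an 8.74-fold fall (-3.13 ± 0.18), and its copy Hspa1b, Bag3 and Cryab were also called lower.

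Imprinted and Hox genes were mostly lower, where 28.0% of all genes were called lower and 33.6% higher. Of 20 imprinted genes, 13 were called lower and 1, Usp29, higher by the scaling on all genes only (median -0.87), led by Igf2 and by the feeder-restricted growth inhibitor Grb10 at 44.3 ± 1.12 CPM with ATN161 and 134 ± 4.44 CPM on control feeders (-1.60 ± 0.10). Of 22 Hox and related patterning genes, 19 were called lower and 2 higher (median -1.63). Hoxb9 stood at 3.94, 4.21 and 4.78 CPM with ATN161, against 17.1, 14.9 and 13.4 CPM on control feeders and 70 ± 7.95 CPM in feeders alone. Gata4 was among the members called higher, also with scaling on ES-restricted genes.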

How the data were processed

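mRNA was sequenced in 18 libraries of 6 groups. The authors deposited estimated counts per RefSeq transcript, not normalized, and per the submitters' processing notes the tools were StringTie 1.3.3b, HISAT2 2.1.0, DESeq2 1.2.10 and SAMtools 1.4, with mm10 and GRCm38 named as builds. The role of each tool and the use of strand are not given in the sources used here, so overlapping and antisense genes may share reads, as may members of multicopy families.

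Expected counts of 75416 transcripts were summed over 19630 genes, 89.26% of the sums above 0 being whole within 0.05, and rounded. Of these genes 15389 passed edgeR's expression filter and 4241 were left out. edgeR 4.0.16 (R 4.3.3) was fitted to all 18 libraries with TMM scaling, robust quasi-likelihood dispersion and a prior count of 2. Calls used Benjamini-Hochberg adjusted p below 0.05 over all genes tested. The steps were tested on simulated counts. The second contrast, ATN161 against feeder removal, came from the same fit. Alternatives were scaling on ES-restricted genes, DESeq2 size factors, other filters and class cutoffs, a fit of 6 libraries, leaving out each library, a replicate block, DESeq2 1.42.0 and limma-voom (limma 3.58.1).

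Genes named in the text were the fibronectin, integrin and core pluripotency genes and Trp53, the 10 largest rises and falls overall and the 8 largest within ES-restricted and shared genes (called, at least 10 CPM in a group, not overlapping), and in each list at most 4 members of lowest p. The ranked rises and falls left out predicted and clone names (Gm with digits, Rik, LOC) and genes without a symbol. Other list members were chosen after their values were seen. The comparison and lists were chosen with earlier results of these data known. Same-numbered libraries did not deviate together, so the fit is unpaired. Libraries of a group correlated at 0.9943 to 0.995 across genes, and none differed from another by as little as sampling noise. The pooled groups were uneven. Chi-square per degree of freedom between replicates reached 42.15 on p53-defective feeders, against at most 3.29 with ATN161 and 2.7 on control feeders. The adjusted p of Fn1 in edgeR's test was 3.7e-05 in the main fit and 1.91e-19 in the fit of 6 libraries. Of 49 gene lists scored, 34 are described in the report and the counts of the other 15 are in the closing section. A few list members are counted but not reported here.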

Additional observations from a re-analysis of the deposited data

How the results depend on the processing

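Of 632 values of 46 summary results over the alternatives, nearly all of them counts, 586 kept their direction and, for counts, stayed within 1.5 times the value reported, and 46 counts moved, 22 of these with scaling on ES-restricted genes. That scaling gave 947 genes higher and 7855 lower, 58 and 3038 of them by at least 2-fold, 195 ES-restricted genes higher and 174 lower, and 752 shared genes higher and 7347 lower. It also gave 10 naive genes higher, 0 of the 2-cell-like, trophectoderm, macrophage, skeletal muscle and ribosomal lists, 1 mesendoderm, 11 germ line, 10 DNA replication, 3 heat shock and 2 oxidative phosphorylation genes, and 10 formative, 15 BMP and 32 p53 target genes lower. Zscan4f (-0.0006), Zscan4c (-0.01) and Eomes (-0.01) changed sign. A filter of 5 CPM in 3 libraries left 83 genes at least 2-fold higher, with 4 genes of the 2-cell-like list, 2 mesendoderm genes and 1 macrophage gene higher. Without a filter, 5 genes of the 2-cell-like list and 1 macrophage gene were higher, and with limma-voom 1 macrophage gene. The fit of 6 libraries gave 179 genes at least 2-fold higher and 100 ES-restricted genes lower. Classes cut at 4-fold held 829 ES-restricted genes called higher, 93 lower and 872 feeder-restricted genes lower, and at 32-fold 262 ES-restricted genes called higher, 21 lower and 31 feeder-restricted genes lower. The causes of these moves were not tested, and only some of these settings hold fewer genes or samples. Leaving out 1 library gave 5 to 7 genes of the 2-cell-like list, 3 to 5 mesendoderm and 0 to 2 macrophage genes higher. Of 2304 values of 165 named genes, 2275 kept direction and side of the threshold, 24 lost the call, 2 gained it and 3 changed sign.

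Library numbers did not pair the samples, same-numbered deviations correlating at -0.039, -0.07 and -0.062. With a replicate block, 5142 genes were called higher and 4306 lower, 9448 in all.

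With 3 libraries a group, differences of low genes such as those of macrophages were limited by depth, and the 3 to 3 permutation test could not go below 0.1. The labels do not say how many feeder cells each lysate held.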

Other observations

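A further 15 gene lists were scored with ATN161 against control feeders, where 33.6% of all genes were called higher and 28.0% lower. For each list the counts with scaling on ES-restricted genes, by which 6.15% of all genes were called higher and 51.0% lower, follow in parentheses as higher and lower. The 10 neuroectoderm genes gave 3 higher and 3 lower (2 and 3), the 10 endothelial marker genes gave 2 higher and 2 lower (0 and 2) and the 20 cadherin and epithelial-mesenchymal transition genes gave 1 higher and 9 lower (0 and 18). The 19 Nodal and activin pathway genes gave 4 higher and 8 lower (1 and 15), the 19 Wnt pathway genes gave 7 higher and 7 lower (0 and 10) and the 22 apoptosis genes gave 7 higher and 6 lower (2 and 14). The 24 cholesterol synthesis genes gave 5 higher and 5 lower (1 and 14), the 14 fatty acid synthesis genes gave 7 higher and 3 lower (2 and 7) and the 24 ATF4 and amino acid stress genes gave 6 higher and 11 lower (0 and 14). The 20 unfolded protein response genes gave 6 higher and 7 lower (0 and 15), the 14 DNA methylation genes gave 8 higher and 2 lower (2 and 5) and the 23 MYC and ribosome biogenesis genes gave 19 higher and 2 lower (5 and 2). The 16 metallothionein and NRF2 genes gave 2 higher and 7 lower (0 and 11), the 23 lysosome and autophagy genes gave 3 higher and 14 lower (0 and 21) and the 18 serum, glucocorticoid and circadian genes gave 2 higher and 13 lower (0 and 14).

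Genes of the Y chromosome differed between the groups and were looked at after their values were seen. Kdm5d, a histone demethylase, stood at 0.758, 0.76 and 1.09 CPM with ATN161, against 5.55, 6.15 and 7.25 CPM on control feeders, 3.73 ± 0.0956 CPM after feeder removal and 0.48 ± 0.189 CPM in feeders alone (-2.85 ± 0.20 against control feeders, edgeR adjusted p = 1.64e-10). Uty, of the UTX demethylase family, stood at 0.91, 1.27 and 1.14 CPM with ATN161 and 5.94, 5.24 and 5.3 CPM on control feeders (-2.31 ± 0.19). The helicase gene Ddx3y stood at 3.03, 3.14 and 4.88 CPM with ATN161, against 15.2, 16 and 17 CPM on control feeders (-2.13 ± 0.16). Eif2s3y, a translation initiation factor, stood at 4.55, 4.31 and 4.73 CPM with ATN161 and 10.9, 12.1 and 13 CPM on control feeders (-1.41 ± 0.15). In all 4 genes feeders alone had the lowest mean, and the levels after feeder removal (4.66 ± 0.797 CPM of Uty, 13.5 ± 1.1 CPM of Ddx3y and 10.6 ± 1.79 CPM of Eif2s3y) lay above those with ATN161. The labels give no sex or line for the cells of any group.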
